A study of Mus musculus with 24 samples.

Results

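Differentiated glial progenitor cells that kept a Dgcr8 allele and undifferentiated glial progenitor cells without one are compared here gene by gene. Of the 3 groups of their hybridization they lay farthest apart, and they are called its ends. The members were chosen by their labels alone: 3 arrays of differentiated Dgcr8 flox/delta cells and 3 arrays of undifferentiated Dgcr8 delta/delta cells, 6 of the 24 sample entries, which describe 19 arrays. All were glial progenitor cells (GPCs) that had been made from embryonic stem cells of the mouse, and all belonged to hybridization 1. The differentiated flox/delta cells carried a conditional Dgcr8 allele opposite a deleted allele, and their EGF and FGF had been taken away and replaced by B27 and 1% FBS (fetal bovine serum). The knockout (KO) cells carried deleted alleles only and stayed in N2 medium with EGF and FGF. For them the labels name tamoxifen, at 1 uM for 16 h and then 100 nM for 16 h, and the word mock, neither of which is named for flox/delta cells. A further 3 arrays of undifferentiated flox/delta cells of the same hybridization, grown in EGF and FGF, serve as a middle reference. Every cell in the comparison thus lacked at least 1 intact Dgcr8 allele. The ends differ in Dgcr8 genotype, in tamoxifen and mock treatment and in medium, and the effects of these cannot be told apart. The number of cell lines or clones is not stated, nor is whether the replicates were separate cultures, so a p-value here speaks of the spread among these arrays, which may be technical.

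Dgcr8 binds RNA beside the nuclease Drosha, and the pair frees microRNA hairpins from their long transcripts in the nucleus, so cells without it make almost no canonical microRNAs. MicroRNAs pair through their seed with sites in target messages and lower the amount or translation of those messages. Glial progenitors divide in EGF and FGF, and after growth factor withdrawal and serum they can form astrocytes, the cells that buffer ions and transmitters and carry Gfap filaments, or oligodendrocytes, the cells that make myelin. The title of the series frames the question as how let-7 and miR-125, microRNAs that need Dgcr8, act in the formation of astrocytes.

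Signals were read on Illumina bead arrays and are given as background-corrected, quantile-normalised log2 signal, on which 1 unit is a 2-fold difference and values near 4.4 are background. Mean raw signal was 298 to 422 on the differentiated arrays, 304 to 474 on the KO arrays and 330 to 418 on the undifferentiated flox/delta arrays. Between 12412 and 12701 of 25697 probes were above background on the differentiated arrays, 11788 to 12181 on the KO arrays and 11795 to 12527 on the undifferentiated flox/delta arrays. Arrays of the same group correlated at r = 0.9925 to 0.9959 over the 9771 genes tested, and no pair of arrays held identical values. Differentiated and KO arrays correlated at 0.8515 to 0.855, differentiated and undifferentiated flox/delta arrays at 0.904 to 0.919, and KO and undifferentiated flox/delta arrays at 0.936 to 0.946. In a principal component analysis, the main axis carried 73.4% of the variance. The differentiated arrays lay at -65.6 to -66.1 on it, the KO arrays at 53.4 to 53.8, and the undifferentiated flox/delta arrays between them at 7.10 to 14.996. On the second axis, with 20.95% of the variance, the undifferentiated flox/delta arrays lay outside both ends, at -36.4 to -37.5. There the differentiated arrays lay at 12.2 to 13.9 and the KO arrays at 23.8 to 24.4.

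Most genes differed between the ends. Of 9771 genes tested with limma over the 9 arrays of hybridization 1 and Benjamini-Hochberg adjustment, the source of every adjusted p given here, 6730 passed an adjusted p of 0.05 (68.9%), 3272 higher in differentiated cells (33.5%) and 3458 lower (35.4%). With a 2-fold minimum in addition, 1343 genes were higher (13.7%) and 1203 were lower (12.3%). For 7044 genes (72.1%) the 3 differentiated arrays lay wholly above or wholly below the 3 KO arrays. The median difference over all genes was -0.04. By the same test, 5426 genes differed between differentiated and undifferentiated flox/delta cells (55.5%), 2735 higher and 2691 lower in differentiated cells. Between KO and undifferentiated flox/delta cells 5072 genes differed (51.9%), 2574 higher and 2498 lower in KO cells. These comparisons share the undifferentiated arrays. With so many genes past the test, a count of called list members means little unless set beside these shares. Of the 2546 genes past both limits, 249 were not above background on any KO array and 117 on no differentiated array. Such genes entered the test through the other end or the undifferentiated flox/delta arrays, and their fold is given as a lower bound against the background level.

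**Figure D1:**
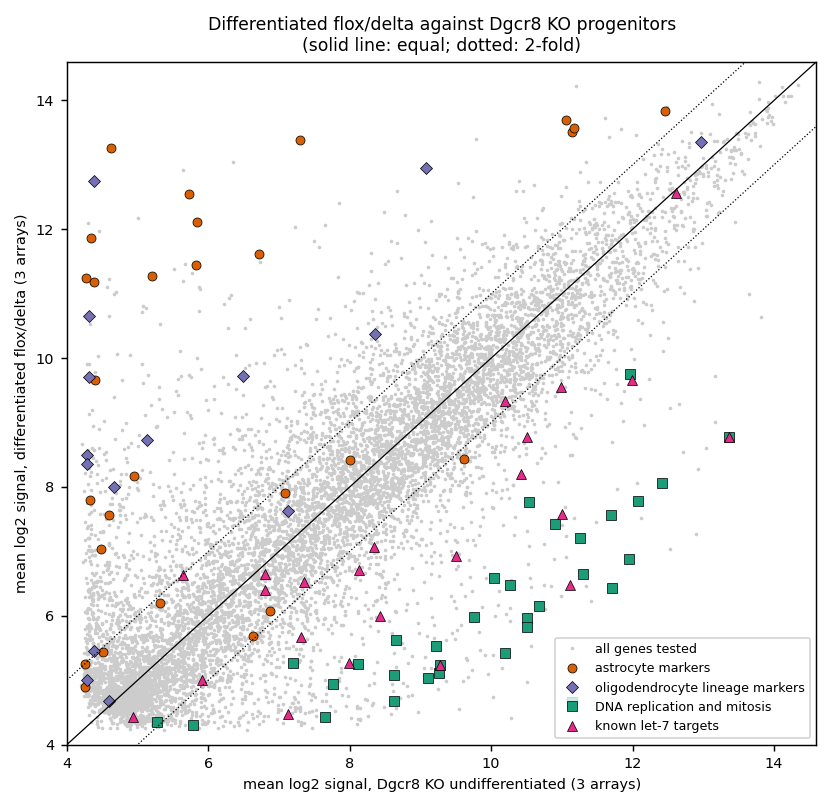
Mean log2 signal of each of 9771 genes in differentiated flox/delta cells (vertical axis) against KO cells (horizontal axis), 3 arrays each, with 4 gene lists in colour. Astrocyte and oligodendrocyte markers lie mostly above the upper 2-fold line, and all 32 measured DNA replication and mitosis genes lie below the line of equality.

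The glial filament gene Gfap marked the differentiated end alone. Gfap had a log2 signal of 11.19, 11.22 and 11.13 in differentiated cells, against 4.27, 4.35 and 4.52 in KO cells, and 4.46, 4.35 and 4.33 in undifferentiated flox/delta cells. The differentiated arrays stood far above the rest, and the probe was not above background on any KO or undifferentiated array. Gfap was at least 85.5-fold higher in differentiated than in KO cells (adjusted p = 1.16e-12) and was not called between KO and undifferentiated flox/delta cells (adjusted p = 0.991). It entered the test through the 3 differentiated arrays alone, so its direction was set by the filter. The same holds below for Glycam1 and Enpp6, and through the 3 KO arrays for Arid3b and Tek. Ncan, which encodes the brain matrix proteoglycan neurocan, was low at the KO end alone. Ncan had a log2 signal of 11.75, 11.19 and 11.39 in differentiated cells, against 6.16, 5.84 and 5.46 in KO cells, and 11.58, 11.18 and 11.41 in undifferentiated flox/delta cells. Its log2 difference was 5.62 ± 0.19 (SE, adjusted p = 2.87e-10) between the ends, against 0.06 (adjusted p = 0.821) between differentiated and undifferentiated flox/delta cells. Igdcc3, a receptor of the immunoglobulin superfamily and a known let-7 target, had a log2 signal of 7.90, 7.42 and 7.40 in differentiated cells, against 11.05, 10.91 and 11.06 in KO cells, and 5.22, 4.72 and 4.99 in undifferentiated flox/delta cells. Igdcc3 was thus lower in differentiated than in KO cells (log2 difference -3.43 ± 0.16, adjusted p = 3.40e-09). Yet its lowest group was the undifferentiated flox/delta cells, which lay 2.60 log2 units under the differentiated cells (adjusted p = 6.68e-08) and 6.03 under the KO cells (adjusted p = 3.10e-10).

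Dgcr8 itself gave a weak contrast. Dgcr8 had a log2 signal of 6.96, 7.14 and 7.33 in differentiated cells, against 6.80, 7.02 and 6.66 in KO cells, and 7.29, 7.48 and 7.26 in undifferentiated flox/delta cells. The differentiated and KO arrays overlapped, and the log2 difference of 0.32 ± 0.13 had an adjusted p of 0.0422. The call was lost in 8 of 18 alternative analyses, in which the adjusted p reached 0.293. Against undifferentiated flox/delta cells, the KO cells were lower (-0.52, adjusted p = 0.00502) and the differentiated cells were not called (-0.20, adjusted p = 0.203). Where the probe lies relative to the deleted part of the gene is not given in the sources used here, so its signal checks the knockout labels only if it lies inside.

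**Figure D2:**
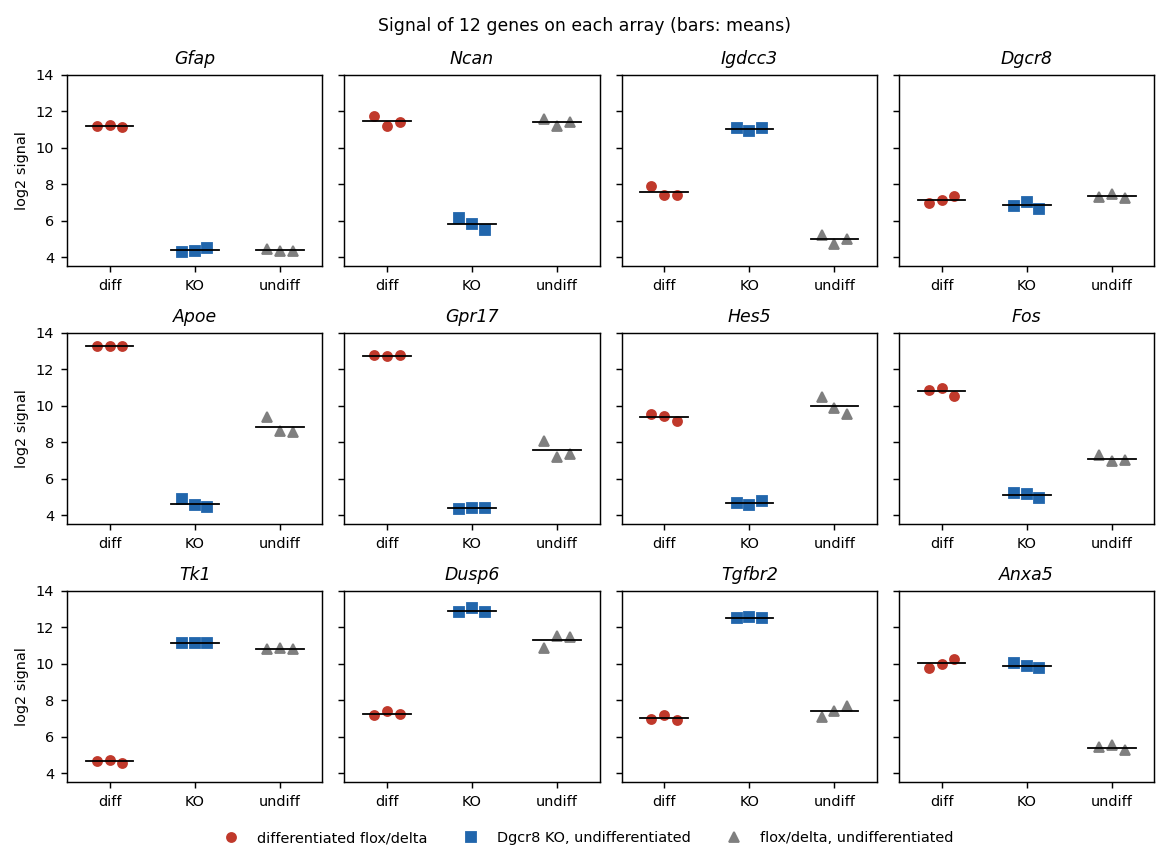
Log2 signal of 12 genes on each of the 9 arrays, with the differentiated flox/delta, KO and undifferentiated flox/delta groups from left to right and bars at group means. Gfap is high in differentiated cells alone, Ncan and Hes5 are low in KO cells alone, and Anxa5 is low in undifferentiated flox/delta cells alone.

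The 15 genes most above KO in differentiated cells had varied roles. Apoe, the lipid carrier that astrocytes secrete, had a log2 signal of 13.24, 13.28 and 13.28 in differentiated cells, against 4.86, 4.57 and 4.45 in KO cells, and 9.36, 8.62 and 8.58 in undifferentiated flox/delta cells. The groups formed 3 separate levels for Apoe, with a log2 difference of 8.64 ± 0.19 between the ends (adjusted p = 1.39e-11). Gpr17, a receptor of oligodendrocyte precursors that have begun to mature, had a log2 signal of 12.76, 12.70 and 12.77 in differentiated cells, against 4.33, 4.40 and 4.40 in KO cells. Gpr17 was at least 253-fold higher in differentiated cells (adjusted p = 1.41e-11). Lims2, a LIM-domain adaptor of integrin complexes whose gene span overlaps that of Gpr17, averaged 10.65 in differentiated cells and 4.31 in KO cells (at least 59.2-fold). Glycam1, a secreted mucin-like glycoprotein, averaged 12.09 in differentiated cells, 4.30 in KO cells and 4.29 in undifferentiated flox/delta cells, an at least 161-fold difference from KO. Like Gfap, Glycam1 was above background at the differentiated end only.

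Clu, an extracellular chaperone, averaged 11.86 in differentiated cells and 4.34 in KO cells (at least 137-fold, adjusted p = 3.24e-11). Agt, the angiotensin precursor that astrocytes make in the brain, averaged 11.24 in differentiated cells and 4.27 in KO cells (at least 89.2-fold). For both, the undifferentiated flox/delta cells lay between, at 5.61 for Clu and 7.19 for Agt. Mmd2, a membrane protein of the progestin and adipoQ receptor family, had a log2 signal of 11.996, 11.88 and 12.03 in differentiated cells, against 4.68, 4.41 and 4.25 in KO cells. Mmd2 was at least 148-fold higher in differentiated cells, and its 10.35, 9.79 and 9.76 in undifferentiated flox/delta cells lay far nearer to the differentiated end. Ntrk2, the receptor for the neurotrophin BDNF, showed the same order, with means of 12.93 in differentiated, 5.65 in KO and 10.97 in undifferentiated flox/delta cells. The probe used gave a log2 difference of 7.28. The 2 other kept probes of Ntrk2, above background on no KO array, gave smaller differences of 1.39 and 2.48. Atp1b2, the glial beta subunit of the sodium pump, averaged 12.55 in differentiated, 5.72 in KO and 9.73 in undifferentiated flox/delta cells.

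Of the other genes in this group of 15, Fbxo2, which binds glycoproteins for ubiquitination, differed by 7.17, and Mt3, the brain metallothionein, by 6.69. Reln, a secreted guidance protein of the developing brain, differed by 6.63 and Rnase1, a secreted ribonuclease, by 6.33. B3gat1, the enzyme that makes the HNK-1 carbohydrate, was at least 81.4-fold higher by its brightest probe. Its 2 other kept probes, above background on at most 1 KO array, differed by only 0.39 and by 5.57. Each of these genes was also higher in undifferentiated flox/delta than in KO cells, with KO minus undifferentiated flox/delta differences of -4.49 for Fbxo2, -2.47 for Mt3, -3.23 for Reln, and -1.74 for Rnase1, and with B3gat1 at least 11.5-fold lower in KO cells.

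**Figure D3:**
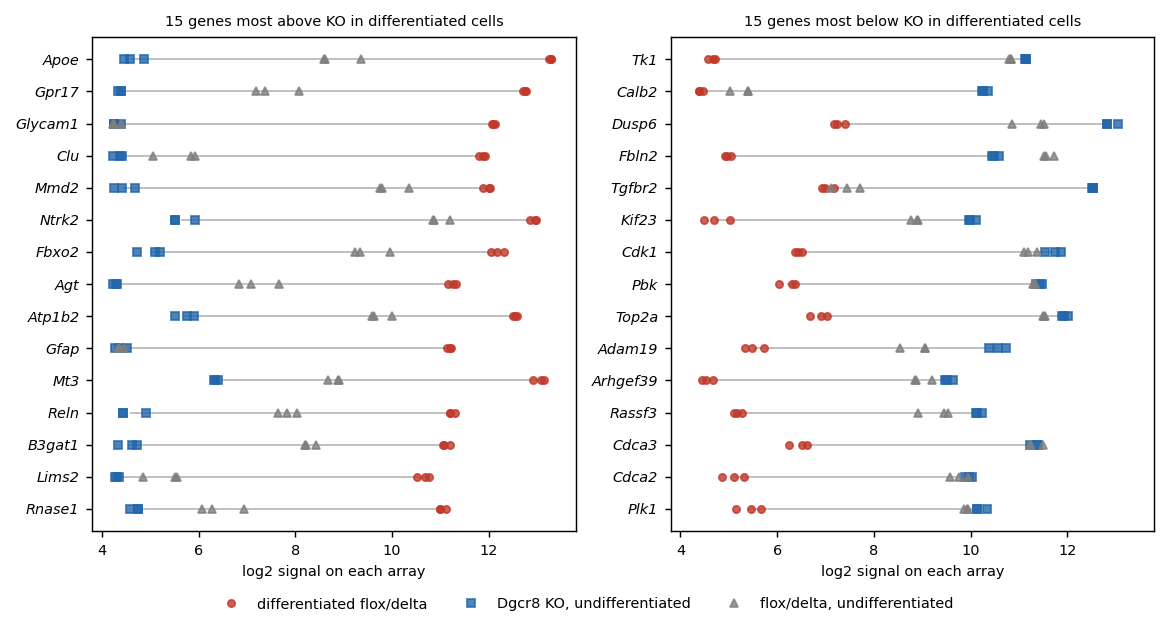
Log2 signal on each array for the 15 genes most above (left) and the 15 genes most below (right) KO in differentiated cells, with undifferentiated flox/delta arrays as grey triangles. In the left panel the grey triangles spread over the whole range, from Gfap and Glycam1 at the KO level to Ntrk2 near the differentiated level, while in the right panel they mostly sit beside the KO arrays.

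Astrocyte markers were mostly higher at the differentiated end. Of 31 listed genes 28 were measured, and 25 rose and 3 fell, against backgrounds of 33.5% and 35.4%. In 20 the rise was at least 2-fold. The list median was 2.80 in differentiated minus KO cells (2.72 with bounds in place of fitted values), against -0.04 over all genes, and 10 of the 28 were above background in no KO array. Those 10 entered the test through flox/delta arrays and could hardly have been called lower, so the shares over all genes are not a like background for them. The mean level of the 28 on an array was 9.74 to 9.78 in differentiated cells, 6.38 to 6.45 in KO cells and 7.59 to 7.89 in undifferentiated flox/delta cells. Apoe, Clu, Agt and Atp1b2 led the list. Members outside the leading 4 are named after their values were seen. Aqp4, the astrocyte water channel, averaged 12.11 in differentiated and 5.84 in KO cells, and Slc1a3, the glutamate transporter GLAST, averaged 13.83 in differentiated and 12.47 in KO cells. Gja1, the gap junction protein connexin 43, averaged 13.57 in differentiated and 11.18 in KO cells. Aldh1l1, often used to mark astrocytes as a whole, rose by 0.41 (adjusted p = 0.048). The 3 that fell were Acsbg1 (-1.19), Htra1 (-0.95) and Cbs (-0.80). Set against undifferentiated flox/delta cells, 22 of the 28 were higher and 1 was lower in differentiated cells (median 1.34), and 3 were higher and 17 lower in KO cells (median -0.63), 2 comparisons that share the undifferentiated arrays. Over all 9771 genes, 2735 were higher and 2691 lower in differentiated cells, and 2574 were higher and 2498 lower in KO cells. The members did not share 1 pattern: the undifferentiated level stood at the KO level for Gfap and Aqp4 and at the differentiated level for Ncan.

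Oligodendrocyte lineage genes were also higher at the differentiated end. Of 21 listed genes 15 were measured, 14 rose, 11 of them at least 2-fold, and none fell, where 33.5% of all genes rose and 13.7% did so by at least 2-fold. The list median was 3.33 (2.14 to 3.46 over the 18 alternative analyses of processing and arrays), and 7 of the 15 were above background in no KO array. Those 7 entered the test through flox/delta arrays and could hardly have been called lower. The share over all genes is not a like background for them. The mean level of the 15 on an array was 8.93 to 9.19 in differentiated, 5.84 to 5.95 in KO and 7.17 to 7.46 in undifferentiated flox/delta cells. Beside Gpr17 and Lims2, Mbp, a main protein of compact myelin, had a log2 signal of 10.09, 9.36 and 9.68 in differentiated cells, against 4.30, 4.27 and 4.35 in KO cells. All differentiated arrays were above all KO arrays for Mbp, with an at least 30.9-fold difference on this probe. The other kept probe of Mbp, above background on no KO array, gave a log2 difference of 1.36. Enpp6, a choline phosphodiesterase of newly formed oligodendrocytes, averaged 8.50 in differentiated, 4.28 in KO and 4.39 in undifferentiated flox/delta cells (at least 13.4-fold over KO). Pdgfra, the growth factor receptor of oligodendrocyte precursors, averaged 8.72 in differentiated, 5.13 in KO and 7.08 in undifferentiated flox/delta cells, and Pdgfra, Olig1, Olig2 and Cspg4 are named after their values were seen. Olig1 and Olig2, transcription factors of the whole lineage, differed least among the called members, by 0.38 and 0.51. Cspg4, the NG2 proteoglycan of oligodendrocyte precursors, was near background in all groups (4.67 in differentiated and 4.59 in KO cells, adjusted p = 0.632). In bulk RNA, more cells of a type and more RNA per cell cannot be told apart, and the part of each cell type in the differences was not tested.

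Neuron markers moved both ways. Of 21 listed genes 17 were measured, with 11 higher and 5 lower, where 33.5% of all genes were higher and 35.4% lower. The median of 0.76 (0.47 with bounds) was 0.29 to 1.38 over the alternatives, and was 1.32, 1.36 and 1.38 without KO replicates 1, 2 and 3 in turn. Nsg2, a neuronal endosome protein, was at least 13.4-fold higher in differentiated cells, at 8.50 against 4.52 in KO cells, with 8.13 in undifferentiated flox/delta cells. Dcx, the microtubule protein of young neurons, averaged 9.20 in differentiated, 5.99 in KO and 5.71 in undifferentiated flox/delta cells. Ncam1, the neural cell adhesion molecule, differed by 3.61 on the probe used and by 1.10 on the other kept probe. In the opposite direction, Calb2, the calcium-binding protein calretinin, had a log2 signal of 4.46, 4.39 and 4.38 in differentiated cells, against 10.25, 10.35 and 10.23 in KO cells. The KO arrays stood alone for Calb2, since undifferentiated flox/delta cells had 5.40, 5.02 and 5.39. Calb2 was at least 49-fold lower in differentiated cells on the probe used, with a log2 difference of -5.87. Its other kept probe, above background on no differentiated array, gave -4.00. Tubb3, the neuronal tubulin, named after its value was seen, was above background on no differentiated array and averaged 5.13 in KO cells.

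Progenitor genes were split too. Of 20 listed genes 14 were measured, with 8 higher and 5 lower in differentiated cells, against backgrounds of 33.5% and 35.4%. The median was 0.52 (0.08 to 0.58 over the alternatives). Hes5, a Notch-induced repressor that keeps progenitors undifferentiated, had a log2 signal of 9.57, 9.45 and 9.17 in differentiated cells, against 4.69, 4.56 and 4.75 in KO cells, and 10.46, 9.87 and 9.54 in undifferentiated flox/delta cells. The KO arrays were the low group for Hes5, with a log2 difference of 4.73 ± 0.20 between the ends (adjusted p = 1.61e-09). Sox9, a transcription factor that glial fate needs, differed by 3.16 and Dll1, a Notch ligand, by 1.84, and in both the undifferentiated flox/delta cells (9.01 for Sox9, 9.54 for Dll1) were closer to the differentiated cells (10.13 and 9.29) than to KO cells (6.98 and 7.45). The progenitor filament gene Nes, named after its value was seen, was 11.21 in differentiated and 11.59 in KO cells, high at both ends.

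Markers of tissues other than neural were mostly at or near background. None of the 8 microglia markers with a named probe were measured. Of 9 endothelial markers 2 were measured and both were lower in differentiated cells: Tek, an angiopoietin receptor, at 4.45 in differentiated and 5.26 in KO cells, and Egfl7 at 6.11 in differentiated and 6.71 in KO cells. Of 15 mesenchymal and smooth muscle markers 4 were measured. Acta2, smooth muscle actin, was at least 4.18-fold higher in differentiated cells, but its 2 other kept probes gave log2 differences of only 0.41 and 0.57, and without differentiated replicate 1, 2 or 3 a dimmer probe stood for the gene, at 0.42, 0.34 (adjusted p = 0.0675) and 0.46. Thy1 was at least 1.35-fold higher, Tpm1 differed by -1.22 and Twist1 by -0.99. Of 13 pluripotency markers 6 were measured. Esrrb averaged 4.52 in differentiated, 6.70 in KO and 6.24 in undifferentiated flox/delta cells, Klf2 averaged 4.95 in differentiated and 6.61 in KO cells, and Klf4 was at least 1.29-fold higher. Nanog, a defining factor of embryonic stem cells, named after its value was seen, stayed near background at 5.13 in differentiated and 4.96 in KO cells. Cxcr4, a chemokine receptor also used by neural progenitors, was the measured endoderm and mesoderm marker that rose, with 9.03 in differentiated and 6.996 in KO cells.

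Many of the 15 genes most below KO in differentiated cells act in DNA synthesis or cell division. Tk1, thymidine kinase of dividing cells, had a log2 signal of 4.68, 4.71 and 4.57 in differentiated cells, against 11.13, 11.15 and 11.15 in KO cells, and 10.80, 10.84 and 10.83 in undifferentiated flox/delta cells. The KO and undifferentiated arrays lay close together for Tk1, far above the differentiated arrays, with a log2 difference of -6.49 ± 0.08 between the ends (adjusted p = 6.27e-13) and of -3.37 on its other kept probe. Cdk1, the kinase that starts mitosis, had a log2 signal of 6.43, 6.36 and 6.51 in differentiated cells, against 11.74, 11.86 and 11.53 in KO cells. The probe used gave a log2 difference of -5.28. The other kept probe of Cdk1, above background on no differentiated array, gave a smaller difference of -0.89. Top2a, the topoisomerase that untangles replicated chromosomes, had a log2 signal of 7.04, 6.69 and 6.91 in differentiated cells, against 12.02, 11.90 and 11.93 in KO cells. Plk1, a mitotic kinase, had a log2 signal of 5.46, 5.15 and 5.67 in differentiated cells, against 10.13, 10.13 and 10.33 in KO cells. In Top2a and Plk1 every differentiated array lay over 4 log2 units below every KO array. Kif23, a motor of cytokinesis, differed by -5.28, and Pbk, a mitotic kinase, by -5.18. Cdca3 and Cdca2, proteins of cell division, differed by -4.87 and -4.86.

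All 32 measured members of the DNA replication and mitosis list, of 43 listed, were lower in differentiated cells, 31 of them at least 2-fold, where 35.4% of all genes were lower and 12.3% at least 2-fold. The list median was -3.99. Against undifferentiated flox/delta cells, all 32 were lower in differentiated cells as well (median -3.56), while 14 were higher and 1 was lower in KO cells (median 0.24), 2 comparisons that share the undifferentiated arrays. Of all 9771 genes, 2691 were lower in differentiated cells by that comparison, and 2574 were higher and 2498 lower in KO cells. The mean level of the 32 was 6.10 to 6.15 on differentiated arrays, 9.88 to 9.92 on KO arrays and 9.51 to 9.66 on undifferentiated flox/delta arrays. Ube2c, a ubiquitin-conjugating enzyme of mitosis, was above background on no differentiated array and was at least 1.52-fold lower there than in KO cells. Some members did separate KO from undifferentiated flox/delta cells: E2f1, picked after its value was seen, averaged 5.82 in differentiated, 10.51 in KO and 8.46 in undifferentiated flox/delta cells. E2f1 is a transcription factor that turns on genes of DNA synthesis. Of 10 measured cell cycle inhibitors, 2 rose and 5 fell, against backgrounds of 33.5% and 35.4%, and 3 were not called. Cdkn2b, an inhibitor of cyclin D kinases, averaged 9.28 in differentiated and 6.77 in KO cells. Rb1, which restrains E2F, averaged 10.15 in differentiated and 8.36 in KO cells, while its relative Rbl1 averaged 5.04 in differentiated and 7.85 in KO cells. Btg1, an antiproliferative factor, differed by -2.18.

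Because these genes moved together, their promoters were read from RefSeq (assembly GRCm38.p6), as the 250 bases before the start site, and searched on both strands for TTTGAA, the letters of the cell cycle homology region (CHR), and for CCAAT, the NF-Y box. The promoters of the 3 genes with the largest differences among those that hold both motifs follow, 5′ to 3′ on the gene's strand, with each match on either strand in capitals.
Cdk1: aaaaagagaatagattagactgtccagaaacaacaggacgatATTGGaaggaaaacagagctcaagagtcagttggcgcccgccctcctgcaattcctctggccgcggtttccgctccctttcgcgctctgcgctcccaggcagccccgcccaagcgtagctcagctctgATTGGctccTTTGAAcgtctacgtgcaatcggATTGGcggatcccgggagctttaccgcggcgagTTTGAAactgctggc
Top2a: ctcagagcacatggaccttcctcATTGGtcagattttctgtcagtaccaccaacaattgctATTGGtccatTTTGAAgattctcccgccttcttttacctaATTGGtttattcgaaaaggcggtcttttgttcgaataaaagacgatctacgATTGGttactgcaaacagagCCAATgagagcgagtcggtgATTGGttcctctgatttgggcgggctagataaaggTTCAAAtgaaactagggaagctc
Cdc20: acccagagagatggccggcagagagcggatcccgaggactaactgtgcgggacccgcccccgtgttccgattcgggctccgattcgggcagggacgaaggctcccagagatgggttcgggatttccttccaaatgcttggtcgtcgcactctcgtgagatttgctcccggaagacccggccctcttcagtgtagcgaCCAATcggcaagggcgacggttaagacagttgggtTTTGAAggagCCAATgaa
The windows are chr10:69352913-69353162 for Cdk1, chr11:99024190-99024439 for Top2a and chr4:118437344-118437593 for Cdc20, all on the minus strand. The CHR letters begin 71 and 15 bases before the start in Cdk1, 179 and 23 in Top2a and 18 in Cdc20, the activator of the anaphase complex, whose log2 difference was -4.66. Of the 27 measured list members with a promoter entry, 7 held TTTGAA (25.9%), 19 held CCAAT (70.4%) and 7 held both (25.9%). Among 27025 promoters of the same length, 1 per gene, the shares were 16.3%, 34.5% and 5.73%, and among those of the 7369 tested genes with an entry they were 10.2%, 37.3% and 4.17%. A match is a description of the letters and not evidence of binding.

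ERK feedback and immediate early genes were mostly lower at the differentiated end. The ends differ in EGF and FGF but also in Dgcr8 genotype and in tamoxifen and mock treatment, and the part of each was not tested. Of 22 listed feedback and immediate early genes 16 were measured, and 13 fell and 2 rose, where 35.4% of all genes fell. The median was -1.24 (-1.10 with bounds, and -1.33 to -0.65 over the alternatives). Dusp6, the phosphatase that ERK induces and that inactivates ERK, had a log2 signal of 7.18, 7.40 and 7.24 in differentiated cells, against 12.81, 13.04 and 12.82 in KO cells, and 10.85, 11.51 and 11.46 in undifferentiated flox/delta cells. The groups did not overlap for Dusp6, the KO arrays were the highest, and the log2 difference between the ends was -5.62 ± 0.16 (adjusted p = 8.12e-11). Its 2 other kept probes gave -4.92 and -4.03. Spry4, an inhibitor of receptor tyrosine kinase signalling, averaged 4.99 in differentiated, 9.36 in KO and 8.10 in undifferentiated flox/delta cells. Dusp1, a phosphatase of stress kinases, averaged 6.02 in differentiated, 10.21 in KO and 8.13 in undifferentiated flox/delta cells. Fos went against the list. This immediate early transcription factor had a log2 signal of 10.84, 10.98 and 10.54 in differentiated cells, against 5.21, 5.17 and 4.96 in KO cells, and 7.29, 6.97 and 7.03 in undifferentiated flox/delta cells, a log2 difference of 5.67 ± 0.13 (adjusted p = 2.21e-11). Junb, its dimer partner, was the other member that rose, with 7.24 in differentiated, 5.60 in KO and 4.70 in undifferentiated flox/delta cells.

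Other genes among the 15 most below KO belonged to adhesion and signalling. Fbln2, a fibulin of the extracellular matrix, had a log2 signal of 4.93, 4.96 and 5.04 in differentiated cells, against 10.58, 10.45 and 10.48 in KO cells, and 11.52, 11.72 and 11.55 in undifferentiated flox/delta cells. Fbln2 was low in differentiated cells alone, with a log2 difference between the ends of -5.53 on the probe used and -2.53 on its other kept probe. Adam19, a membrane metalloprotease, differed by -5.04, and Rassf3, a Ras association domain protein, by -4.97. In both, the undifferentiated flox/delta means, at 8.89 and 9.30, lay between the ends and nearer to KO.

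let-7 is set beside its known targets here because the series is about it and because those targets were among the genes high at the KO end. The mature strands of the let-7 family and of miR-125, from RefSeq (GRCm38.p6), are given with the seed (bases 2 to 8) in capitals.
let-7a-5p: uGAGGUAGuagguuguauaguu
let-7d-5p: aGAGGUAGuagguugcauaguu
let-7e-5p: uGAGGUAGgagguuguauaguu
let-7f-5p: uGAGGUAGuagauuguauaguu
let-7i-5p: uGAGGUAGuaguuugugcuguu
miR-98-5p: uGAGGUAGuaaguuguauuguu
miR-125a-5p: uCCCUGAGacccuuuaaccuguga
miR-125b-5p: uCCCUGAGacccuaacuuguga
Strands were looked up by name, and the counts cover only the names and loci found. The seed GAGGUAG was shared by 9 such mature strands at 11 loci (let-7a to let-7g, let-7i and miR-98, of which 6 are shown). The seed CCCUGAG was shared by miR-125a and miR-125b, 2 strands at 3 loci. One let-7a locus lies at chr13:48538239-48538260 on the minus strand. The let-7e and miR-125a loci lie close together at chr17:17830366-17830387 and chr17:17830817-17830840 on the plus strand. The microRNAs themselves were not measured by these probes.

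Known let-7 targets were mostly lower in differentiated than in KO cells. Of 36 listed genes 23 were measured, 20 fell, 15 of them at least 2-fold, 1 rose and 2 were not called, where 35.4% of all genes fell. The list median was -1.64 (-1.72 to -1.09 over the alternatives), against -0.04 over all genes. The mean level of the 23 was 7.05 to 7.23 on differentiated arrays, 8.93 to 8.95 on KO arrays and 7.62 to 7.70 on undifferentiated flox/delta arrays. Hmga2, Lin28a, Lin28b and Trim71, targets known for their strong response to let-7, were among the 13 not measured. The list shares Ccnd1 and Rrm2 with the DNA replication list, Dicer1 with the microRNA list, and Tgfbr1 and Acvr2a with the TGF-beta list. Igdcc3 and Nr2e1 are also in the progenitor list. Ccnd2, a D cyclin, had a log2 signal of 6.99, 6.22 and 6.23 in differentiated cells, against 11.10, 11.18 and 11.06 in KO cells, and 9.26, 9.82 and 9.88 in undifferentiated flox/delta cells. Ccnd1, its relative, had a log2 signal of 8.62, 8.91 and 8.78 in differentiated cells, against 13.30, 13.48 and 13.31 in KO cells, and 12.31, 12.92 and 12.89 in undifferentiated flox/delta cells. Both cyclins, like Rrm2, a subunit of ribonucleotide reductase (5.24 in differentiated, 9.27 in KO and 9.14 in undifferentiated flox/delta cells), also separated differentiated from undifferentiated flox/delta cells. Other members were called in KO cells against both flox/delta groups and not between those groups. Arid3b, a DNA-binding protein also listed as a miR-125 target, had a log2 signal of 4.66, 4.40 and 4.34 in differentiated cells, against 7.13, 6.99 and 7.28 in KO cells, and 4.48, 4.43 and 4.29 in undifferentiated flox/delta cells. No array outside the KO group had Arid3b above background, and it was at least 5.53-fold lower in differentiated cells. Plagl2, a zinc finger factor, like Igf2bp3 and Nr2e1 named after its value was seen, showed the same order, with 8.21 in differentiated, 10.43 in KO and 8.05 in undifferentiated flox/delta cells. Igdcc3, given above, was likewise highest in KO cells, and so was Igf2bp3, an RNA-binding protein of fetal tissue, at 6.92 in differentiated, 9.50 in KO and 8.19 in undifferentiated flox/delta cells. Over the list, KO minus undifferentiated flox/delta cells gave 20 higher and 2 lower (median 1.26), where 2574 of all 9771 genes were higher and 2498 lower. Differentiated minus undifferentiated flox/delta cells gave 7 higher and 10 lower (median -0.18), where 2735 of all genes were higher and 2691 lower. These comparisons share the undifferentiated arrays. The member that rose between the ends was Nr2e1, a nuclear receptor of neural stem cells, at 6.63 in differentiated and 5.65 in KO cells.

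**Figure D4:**
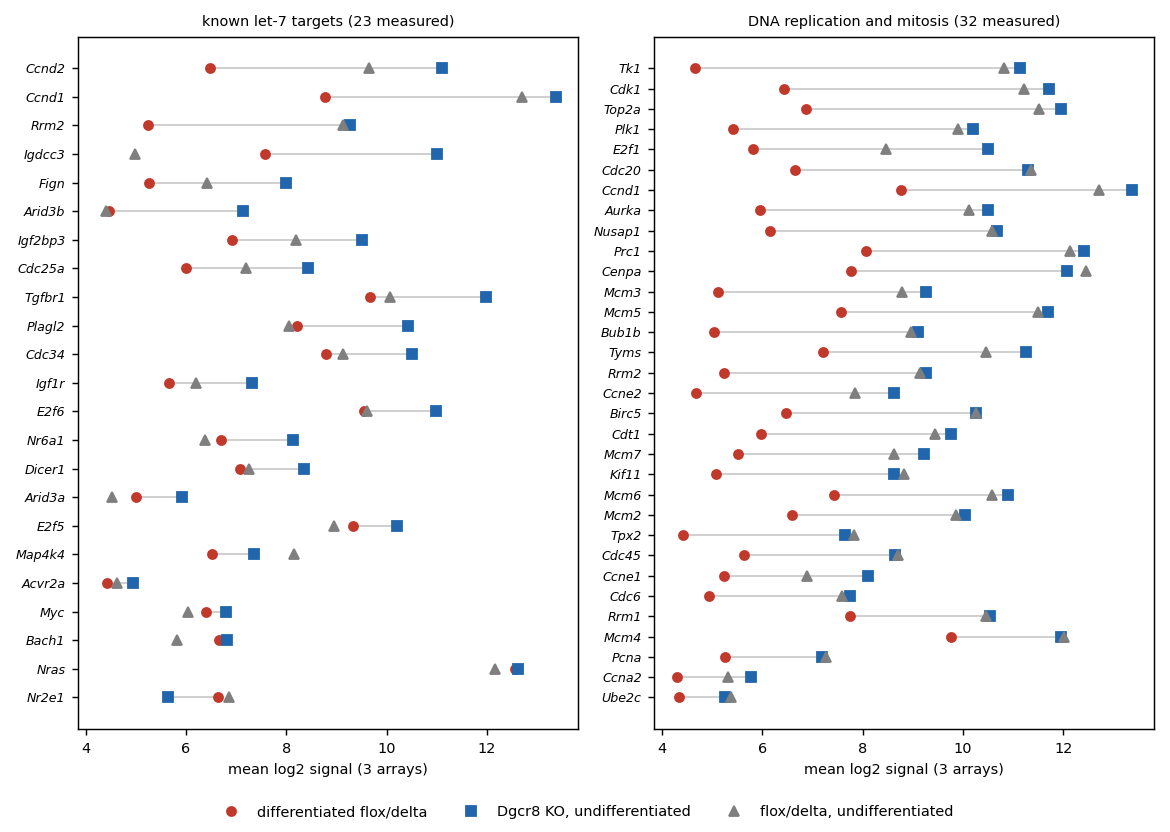
Mean log2 signal of each measured known let-7 target (left, 23 genes) and each measured DNA replication and mitosis gene (right, 32 genes) in differentiated flox/delta (circles), KO (squares) and undifferentiated flox/delta cells (triangles), 3 arrays each. On the right most triangles sit beside the squares, while on the left many sit beside or below the circles.

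Known miR-125 targets had no common direction. Of 32 listed genes 22 were measured, with 6 higher, 10 lower and 6 not called, where 33.5% of all genes were higher and 35.4% lower. The median was -0.04, close to that of all genes. Beside Arid3b, Plk3, a polo-like kinase, averaged 5.56 in differentiated, 8.19 in KO and 6.32 in undifferentiated flox/delta cells. Cbfb, the partner of Runx factors, differed by -1.58, and Mknk2, a kinase of translation initiation, by -1.34. Among genes of microRNA processing and silencing, 14 of 16 were measured. Of these, 9 fell, 1 rose and 4 were not called (median -0.66), where 35.4% of all genes fell and 33.5% rose. The riser was Dgcr8, whose weak contrast is given above. Tarbp2, the RNA-binding partner of Dicer, averaged 5.86 in differentiated, 7.88 in KO and 6.84 in undifferentiated flox/delta cells. Ago2, the slicing Argonaute, averaged 5.78 in differentiated, 7.41 in KO and 6.03 in undifferentiated flox/delta cells. Tnrc6a, the GW182 scaffold that Argonautes bind, and Dicer1, which cuts hairpins into mature microRNAs, differed by -1.42 and -1.27. For Ago2, Tnrc6a and Dicer1 the differentiated cells were not called against undifferentiated flox/delta cells (log2 differences of -0.25, -0.14 and -0.18, adjusted p = 0.304, 0.238 and 0.159).

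Genes of TGF-beta and BMP signalling had no common direction. Tgfbr2, the ligand-binding TGF-beta receptor, had a log2 signal of 6.98, 7.17 and 6.93 in differentiated cells, against 12.50, 12.54 and 12.53 in KO cells, and 7.10, 7.44 and 7.71 in undifferentiated flox/delta cells. The KO arrays stood apart from both flox/delta groups for Tgfbr2, with a log2 difference of -5.49 ± 0.14 between the ends (adjusted p = 3.37e-11). Its other kept probe, above background on no differentiated array, gave a log2 difference of -2.78. Tgfbr1, the signalling receptor and a known let-7 target, averaged 9.67 in differentiated, 11.99 in KO and 10.06 in undifferentiated flox/delta cells. The probe used for Tgfbr1 gave a log2 difference of -2.32 between the ends, and its 2 other kept probes gave -1.51 and -1.17. Tgfb3, a ligand, averaged 4.64 in differentiated and 7.18 in KO cells, and Smad3, the receptor-activated transcription factor, picked after its value was seen, averaged 6.11 in differentiated and 8.26 in KO cells. Id4, a target of BMP signalling that opposes oligodendrocyte formation, went the other way, at 8.06 in differentiated, 5.64 in KO and 4.97 in undifferentiated flox/delta cells. Over the 24 measured members of 32 listed for TGF-beta and BMP, 10 rose and 8 fell, against backgrounds of 33.5% and 35.4%. The median of -0.05 changed sign in 4 alternative analyses, among them those without KO replicate 1 (0.06) and without KO replicate 2 (0.15).

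Notch genes centred on Hes5, already described. Of 16 measured members of 23, 8 rose and 5 fell, against backgrounds of 33.5% and 35.4%. The median was 0.37 (0.01 to 0.44 over the alternatives). Nrarp, a feedback inhibitor that Notch induces, averaged 10.81 in differentiated, 7.94 in KO and 10.02 in undifferentiated flox/delta cells, and Dll1 was likewise lowest in KO cells. Hey2, another Notch-induced repressor, was at least 1.85-fold higher in differentiated cells. Of 12 measured genes of JAK-STAT and LIF signalling, a pathway that switches on Gfap, 6 rose and 2 fell, where 33.5% of all genes rose. The median was 0.81 and ranged from 0.11 to 1.27 over the alternatives, the higher with the 6 arrays of the ends alone. Socs3, the feedback inhibitor of this pathway, had a log2 signal of 8.43, 8.53 and 8.42 in differentiated cells, against 6.58, 6.94 and 6.74 in KO cells, and 5.07, 4.82 and 5.16 in undifferentiated flox/delta cells. Both ends were above the undifferentiated flox/delta cells for Socs3, by 3.44 in differentiated and 1.73 in KO cells. Socs2, its relative, had the same order, at 9.52 in differentiated, 7.61 in KO and 6.08 in undifferentiated flox/delta cells. Il6st, the shared receptor chain gp130, averaged 9.08 in differentiated, 7.69 in KO and 6.88 in undifferentiated flox/delta cells. Among gliogenic and Sox transcription factors, 10 of 16 measured members rose and 3 fell, against backgrounds of 33.5% and 35.4% (median 0.45). Nfix, a nuclear factor I protein of glial differentiation, differed by 2.56 on the probe used. Its other kept probe, above background on no KO array, differed by 0.96. Sox8 differed by 1.61, and Sox2 by 1.38 with 0.37 on its other kept probe.

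**Figure D5:**
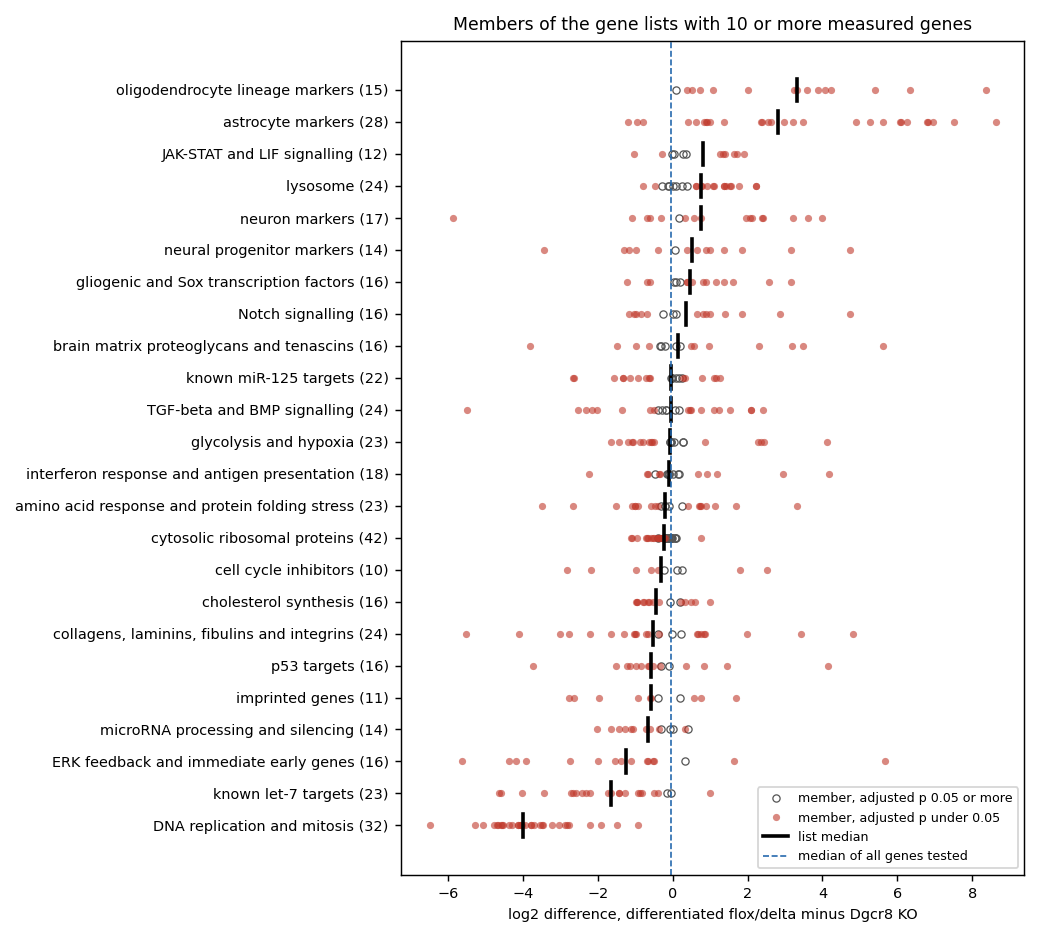
Log2 difference, differentiated flox/delta minus KO, of each measured member of the lists with 10 or more measured genes (points, filled where the adjusted p was under 0.05), with list medians as black bars and the median of all genes as a dashed line. Oligodendrocyte and astrocyte markers have the highest medians and DNA replication and mitosis genes the lowest, with known let-7 targets next to them.

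Matrix genes moved both ways between the ends. Of 16 measured brain matrix genes of 20, 7 rose and 4 fell, against backgrounds of 33.5% and 35.4%. The median was 0.14 (0.10 with bounds, 0.01 to 0.50 over the alternatives, and 0.02 and 0.03 without differentiated replicates 1 and 2). Beside Ncan, Cspg5, a neural proteoglycan, averaged 9.71 in differentiated, 6.21 in KO and 9.75 in undifferentiated flox/delta cells. Bcan, the proteoglycan brevican, averaged 12.72 in differentiated, 9.53 in KO and 12.11 in undifferentiated flox/delta cells. For Ncan and Cspg5, differentiated and undifferentiated flox/delta cells were not called apart (adjusted p = 0.821 and 0.744), and the KO cells were the low group. Tnc, the glycoprotein tenascin C of progenitor niches, ran against these, at 7.97 in differentiated, 11.78 in KO and 10.72 in undifferentiated flox/delta cells. Its 5 other kept probes gave log2 differences between -3.84 and -0.59. Of 24 measured collagens, laminins, fibulins and integrins of 37, 8 rose and 13 fell, where 33.5% of all genes rose and 35.4% fell (median -0.52, and -0.74 to -0.04 over the alternatives). Col18a1, the precursor of endostatin, averaged 4.47 in differentiated and 8.59 in KO cells. The probe used gave a log2 difference of -4.12, and the other kept probe, above background on no differentiated array, gave -0.87. Itga7, a laminin receptor chain, was at least 20.7-fold higher in differentiated cells (9.13, against 4.31 in KO cells). Col6a1, a chain of collagen VI, averaged 8.19 in differentiated, 4.77 in KO and 5.04 in undifferentiated flox/delta cells.

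Lysosomal genes were higher at the differentiated end. Of 24 measured members of 30, 15 rose, 10 of them at least 2-fold, and 2 fell (median 0.77), where 33.5% of all genes rose and 13.7% did so by at least 2-fold. The mean level of the 24 was 8.96 to 9.03 on differentiated arrays, 8.20 to 8.24 on KO arrays and 8.45 to 8.58 on undifferentiated flox/delta arrays. Ctsb and Ctsf, lysosomal cysteine proteases, averaged 12.59 and 8.12 in differentiated cells, against 10.36 and 5.88 in KO cells. Cd63, a tetraspanin of late endosomes, differed by 1.77 and Tpp1, a lysosomal peptidase, by 1.57. Genes of glycolysis and hypoxia fell in 11 and rose in 5 of 23 measured members, against backgrounds of 35.4% and 33.5%. The median was -0.08 (-0.26 to -0.03 over the alternatives). Among those that rose, Slc2a3, a glucose transporter of neurons, averaged 9.68 in differentiated and 5.57 in KO cells, and Aldoc, the brain aldolase, averaged 13.51 in differentiated and 11.15 in KO cells. Pfkp, a phosphofructokinase, averaged 8.42 in differentiated, 5.99 in KO and 4.66 in undifferentiated flox/delta cells, and Hk1, a hexokinase, differed by 2.27. Cholesterol synthesis genes, of which all 16 with a probe were measured, moved little (median -0.45). Of these, 5 were higher and 9 lower, against backgrounds of 33.5% and 35.4%. Pmvk, a mevalonate pathway kinase, differed by 1.01, and Lss, Ebp and Dhcr7, enzymes of later steps, by -0.98, -0.95 and -0.94.

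Cytosolic ribosomal protein genes were called in 22 of 42 measured members, 21 lower and 1 higher, by small amounts (median -0.23, and -0.34 to -0.21 over the alternatives). Over all genes 68.9% were called and 35.4% were lower. Rplp0 and Rpl4 differed by -1.12 and -1.09, Rpl13a by -0.94, and Rpl22 was the member that rose (0.76). Of 23 measured genes of the amino acid response and protein folding stress, 8 rose and 10 fell, against backgrounds of 33.5% and 35.4%. The median was -0.21 (-0.38 to -0.16 over the alternatives). Mthfd2, a mitochondrial folate enzyme of dividing cells, averaged 5.13 in differentiated and 8.63 in KO cells, and Chac1, which degrades glutathione, averaged 7.10 in differentiated and 9.77 in KO cells. Slc7a11, the cystine transporter, averaged 9.89 in differentiated and 6.58 in KO cells. Atf3, a stress-induced transcription factor, was at least 2.42-fold higher in differentiated cells, with KO and undifferentiated flox/delta cells at background. Of 16 measured p53 targets, 4 rose and 10 fell, against backgrounds of 33.5% and 35.4% (median -0.57, and -0.65 to -0.35 over the alternatives). Fas, a death receptor, was at least 14.4-fold higher in differentiated cells and Plk2, a polo-like kinase, differed by -3.73. Apaf1, the caspase activator, and Sesn1, a stress sensor, differed by -1.52 and 1.45.

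Interferon and antigen presentation genes had no common direction, with 5 higher and 5 lower of 18 measured, against backgrounds of 33.5% and 35.4%. The median was -0.10, and 0.02 without differentiated replicate 1. Gbp2, an interferon-induced GTPase, averaged 10.47 in differentiated, 6.28 in KO and 4.58 in undifferentiated flox/delta cells. The probe used gave a log2 difference of 4.18, and the other kept probe, above background on no KO array, gave 1.51. Ifi27 differed by 2.94, Tapbp, the chaperone tapasin, by 1.18, and Rsad2, the antiviral viperin, by -2.23. Of 11 measured imprinted genes, 3 rose and 6 fell, against backgrounds of 33.5% and 35.4% (median -0.59, and -0.68 to -0.34 over the alternatives). Igf2r, the receptor that clears Igf2, averaged 7.41 in differentiated, 10.17 in KO and 8.13 in undifferentiated flox/delta cells. Mest averaged 8.50 in differentiated and 11.15 in KO cells, Peg10 differed by -1.96, and Snrpn, a splicing protein, by 1.70.

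The undifferentiated flox/delta cells stood between the ends for 5097 of all 9771 genes (52.2%) and for 1983 of the 2546 genes at least 2-fold apart (77.9%). The 2546 genes were picked for a wide gap between the ends, which leaves more room for a mean to fall between. The larger share is thus partly built in. For 719 genes they lay above both ends, and for 717 below both, with both comparisons past the test. The 5 farthest above both were Trf, Dcpp1, Actc1, Lor and Plvap. Trf, the iron carrier transferrin, averaged 4.55 in differentiated, 5.07 in KO and 8.40 in undifferentiated flox/delta cells. Dcpp1, a secreted protein, averaged 4.65 in differentiated, 7.27 in KO and 10.12 in undifferentiated flox/delta cells. Actc1, cardiac actin, had a log2 signal of 4.72, 4.66 and 4.83 in differentiated cells, against 4.77, 4.59 and 4.38 in KO cells, and 8.28, 7.02 and 7.25 in undifferentiated flox/delta cells, so that the ends overlapped and replicate 1 of the undifferentiated flox/delta group stood above the other replicates. Lor, the cornified envelope protein loricrin, and Plvap, an endothelial fenestra protein, averaged 5.66 and 5.26 in differentiated, 5.85 and 6.18 in KO and 8.55 and 8.75 in undifferentiated flox/delta cells.

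The 5 farthest below both ends were Anxa5, Sel1l3, Drp2, Glipr2 and Anxa2. Anxa5, a phospholipid-binding annexin, had a log2 signal of 9.78, 10.005 and 10.27 in differentiated cells, against 10.02, 9.88 and 9.75 in KO cells, and 5.42, 5.53 and 5.27 in undifferentiated flox/delta cells. The ends overlapped for Anxa5 (log2 difference 0.13, adjusted p = 0.396, and a difference of -0.04 with median scaling), and both lay over 4 log2 units above the undifferentiated flox/delta cells. Its relative Anxa2 averaged 11.91 in differentiated, 11.65 in KO and 8.66 in undifferentiated flox/delta cells, and its small difference between the ends was called in 5 of 18 alternative analyses though not here (adjusted p = 0.0911). Drp2, a dystrophin relative, averaged 9.58 in differentiated, 9.11 in KO and 5.88 in undifferentiated flox/delta cells. Sel1l3 averaged 9.87 in differentiated, 11.13 in KO and 6.51 in undifferentiated flox/delta cells, and Glipr2 averaged 9.75 in differentiated, 10.49 in KO and 6.58 in undifferentiated flox/delta cells.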

How the data were processed

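The authors deposited a non-normalised Illumina table of probe intensities, each beside its detection p-value, per the file headers. Total RNA was taken with Trizol and labelled with biotin, per the labels' protocols, and the submitters' processing notes list limma, with no version or role given. The 9 arrays of hybridization 1 were used, and 10 columns of the series table were not. From the intensities, log2 signals were computed with limma 3.58.1 in R 4.3.3 (neqc: normexp background correction by detection p-value, quantile normalisation, offset 16). The authors' deposited normalised tables hold signals of separately normalised sets. These were put on the log2 scale and used only for values set beside the values computed here. Probes with a detection p under 0.05 on at least 3 arrays were kept, and the kept probe with the highest mean stood for its gene. Differences were tested with lmFit and eBayes over the 3 groups, with Benjamini-Hochberg adjustment over all genes, which was tested on simulated data. In those data few genes were changed, all of them above background on every array. The simulation therefore does not cover genes at background or a change in most genes. The number of arrays, 3 per group, limits the precision. A fold is a bound where a probe was above background on no array of 1 group.

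The gene lists and their members were chosen with earlier results of these data known. Named genes are Gfap, Ncan, Igdcc3 and Dgcr8, the 15 called genes with the largest difference in each direction, the 4 called members of each of 29 lists with the largest difference, and the 5 genes farthest above and the 5 farthest below both ends in undifferentiated flox/delta cells. Any others were named after their values were seen. The replicate numbers did not pair the samples by the check used. Alternatives were other normalisations, filters, probe rules and sample sets, and leaving out each array.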

Additional observations from a re-analysis of the deposited data

How the results depend on the processing

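Over 17 alternatives fixed at the start and 1 chosen after seeing the data, no called difference of a named gene changed direction, and Anxa5, which was not called, was -0.04 with median scaling. The count of called genes, 6730, was 6700 with only the 6 arrays of the ends, 5928 with median scaling, 6674 without background correction, 6742 with an offset of 50 and 6802 without the filter on dim probes. Genes at least 2-fold apart numbered 2546, and 1452 without background correction, where the median size of their differences was 1.087 against 1.577. With median scaling, 2575 called genes were higher and 3353 lower. Of those at least 2-fold apart, 1243 were then higher and 1405 lower, so that the balance turned. Leaving out 1 array at a time gave 6179 to 6757 called genes and 2476 to 2571 at least 2-fold apart. The call of Dgcr8 was lost in 8 alternatives (adjusted p over all 18 of 0.0173 to 0.293), of Drp2 with median scaling (adjusted p = 0.156), of Trf without background correction (adjusted p = 0.0546) and of Acta2 without differentiated replicate 2 (adjusted p = 0.0675), and Anxa2 was called in 5. The cause was not tested. Arid3b, Atf3, Enpp6, Gfap, Glycam1 and Tek were above background on 3 arrays only, and no longer entered the test when 1 of those was left out. In every alternative all 32 DNA replication and mitosis genes were lower, while 21 to 25 astrocyte markers were higher and 17 to 22 known let-7 targets were lower. Deviations of same-numbered differentiated and KO arrays correlated at -0.0321, 0.163 and 0.0683, so the numbers were not taken to pair the samples. With the replicate number as a block, 6776 genes were called and 2546 were at least 2-fold apart (6814 and 2546 with the numbers of the authors' normalised tables, which exchange replicates 1 and 3 of the undifferentiated groups). In those tables, as the difference between the ends' differences from undifferentiated flox/delta cells, all 2546 genes had the same sign, with a median size of 1.091. Genes dim at 1 end are limited by signal over background, which was 2.33 to 2.74 on differentiated arrays and 2.28 to 3.26 on KO arrays.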

Other observations

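Several gene groups held members with differing patterns, each named after its values were seen. Among the ETS factors that growth factor signalling induces, Etv5 averaged 6.17 in differentiated, 10.10 in KO and 10.48 in undifferentiated flox/delta cells, and Etv4 averaged 6.19 in differentiated, 8.95 in KO and 9.88 in undifferentiated flox/delta cells. Both were thus highest in undifferentiated flox/delta cells, while Dusp6, Spry4 and Dusp1 were highest in KO cells. Egr1, an immediate early factor, averaged 9.71 in differentiated and 11.09 in KO cells, the opposite direction to Fos.

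Cell cycle inhibitors did not mirror the DNA replication genes. Cdkn1a, the inhibitor p21, averaged 9.67 in differentiated, 10.64 in KO and 11.31 in undifferentiated flox/delta cells, and Cdkn2c, the inhibitor p18, averaged 7.24 in differentiated, 7.64 in KO and 9.31 in undifferentiated flox/delta cells, so that both were highest in undifferentiated flox/delta cells. Among glycolysis genes, the hexokinases ran in opposite directions: Hk2 averaged 8.002 in differentiated and 9.66 in KO cells (adjusted p = 1.05e-06), and Hk1 averaged 6.95 in differentiated and 4.68 in KO cells (adjusted p = 4.65e-07). Opalin, a late oligodendrocyte protein, averaged 5.45 in differentiated, 4.38 in KO and 6.85 in undifferentiated flox/delta cells, highest in the undifferentiated flox/delta cells, unlike Mbp and Enpp6.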
